A study of Mus musculus with 36 samples.

Results

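The collagen genes were taken as all array probes whose gene symbol is Col, a number, a and a number. The rule found 91 probes for 41 genes among the 45281 probes of the Illumina mouseWG-6 v2 BeadArray, a bead microarray for mouse transcripts. Of these, 42 probes for 27 genes gave a signal above background (detection p under 0.05) on at least 3 of the 36 arrays and were tested. The tested collagen genes comprised 9 of 11 fibrillar, 6 of 9 basement membrane, 5 of 7 fibril-associated (FACIT), 5 of 8 type VI or short-chain network and 2 of 6 transmembrane or other genes. The other 14 genes were Col5a2 and Col5a3 (fibrillar), Col4a3, Col4a4 and Col15a1 (basement membrane), Col14a1 and Col19a1 (FACIT), Col6a4, Col6a6 and Col10a1 (network), and Col13a1, Col17a1, Col23a1 and Col28a1 (transmembrane or other). Each of their probes was detected on at most 2 arrays, and none of the 5 probes for Col5a2, the usual partner chain of Col5a1, was detected on any array.

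Collagens are triple helices of 3 alpha chains, each chain the product of its own gene. Fibrillar chains assemble outside the cell into the banded fibrils of skin, bone and cartilage. Type IV chains form the sheet-like network of basement membranes, the matrix on which the epithelium of the early embryo rests, while FACIT collagens sit on the surface of fibrils, and type VI and type VIII chains build finer networks. The chains are hydroxylated and folded in the endoplasmic reticulum with the help of the chaperone Serpinh1 before they are secreted.

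The samples were mouse epiblast stem cells (EpiSC), pluripotent cells of the post-implantation epiblast, which per the labels were grown on Matrigel, itself a basement membrane extract, in fibroblast-conditioned medium with bFGF and Activin. Retinoic acid (RA), a signalling molecule made from vitamin A under which pluripotent cells differentiate, was given at 5 uM in 2 of 3 schedules. In the schedule without RA the cells had 36 h of Mock (basal medium) in its place and 24 h of a compound. In the RA 24 h schedule they had 24 h of RA and 36 h of a compound, and in the RA 36 h schedule 36 h of RA and 24 h of a compound. Each schedule held 1 array of each of 10 compounds and 1 Mock array with no compound, and medium conditioned by mouse embryonic fibroblasts (CM) was on 2 arrays without RA and 1 array with RA 24 h. The compounds were Rapamycin (100 nM, mTOR inhibitor), PF573228 (250 nM, focal adhesion kinase inhibitor), Dorsomorphin dihydrochloride (2 uM, inhibitor of AMPK and of BMP receptors), BAY 11-7082 (25 uM, inhibitor of NF-kB activation), Forskolin (50 uM, adenylyl cyclase activator), BAPTA-AM (10 uM, calcium chelator), Docetaxel (500 pM, microtubule stabiliser), Wortmannin (50 nM, PI3 kinase inhibitor), Purmorphamine (2 uM, Smoothened agonist) and SU5402 (2 uM, FGF receptor inhibitor). The labels do not give the order of RA and compound, and the compound time differs between the RA schedules. No label says that arrays came from separate cultures, so p-values measure the spread between arrays, which may be technical. Apart from CM without RA each condition had 1 array, so this spread also includes how the compounds differ from each other. Precision is limited by how many arrays a group has.

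Intensities averaged 336 to 692 raw units per array, and 37.1% to 43.1% of probes were detected on an array. Values below are normalised log2 intensities, on which the lowest signal above background lay at 5.06 to 5.39. Levels of different genes come from different probes and were not compared. A gene is given by its brightest tested probe, and called where the adjusted p of limma, with Benjamini-Hochberg adjustment over all 23999 tested probes, was under 0.05. Schedule differences were estimated in a model with schedule and treatment, from 10 matched compounds, Mock and CM. The arrays lay on 6 slides of 6 arrays. RA 24 h shared no slide with RA 36 h or with no RA, so in either comparison schedule cannot be told apart from slide. The single array without RA on an RA 36 h slide was the Mock array. With RA 24 h, Mock and CM stood apart from the 10 compounds, so results of this schedule are also given from compound arrays alone and from Mock arrays alone.

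After 36 h of RA, basement membrane and several fibrillar collagens were higher, and the 3 chains of type IX collagen were lower, than without RA. Of the 27 tested genes, 14 rose, 5 fell and 8 were not called. Among all 12367 tested genes with a symbol, 59.2% were called in this comparison, 28.4% higher and 30.8% lower. The median log2 difference was 0.56 over the tested collagen genes and -0.03 over all tested genes. By class the median was 1.19 for the basement membrane genes, 0.97 for the fibrillar, 0.09 for the type VI and short-chain, -0.49 for the FACIT and -0.44 for the 2 other genes. A probe could pass the detection filter through its brighter schedule alone, so these counts depend in part on the filter. Of the 8 collagen genes detected on all 36 arrays 7 rose and 1 fell. The share over all genes detected that widely was not computed, so this count cannot set collagens apart from other genes. In 12 genes the 11 arrays of RA 36 h and the 11 without RA (10 compounds and Mock each) did not overlap, a separation seen in 20.8% of all tested genes. They were Col2a1, Col1a2, Col1a1, Col5a1, Col4a1, Col4a2, Col4a5, Col4a6, Col18a1, Col8a1 and Col6a1, all higher, and Col9a3, lower. In bulk RNA, fewer cells of a type and less RNA per cell cannot be told apart.

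**Figure D1:**
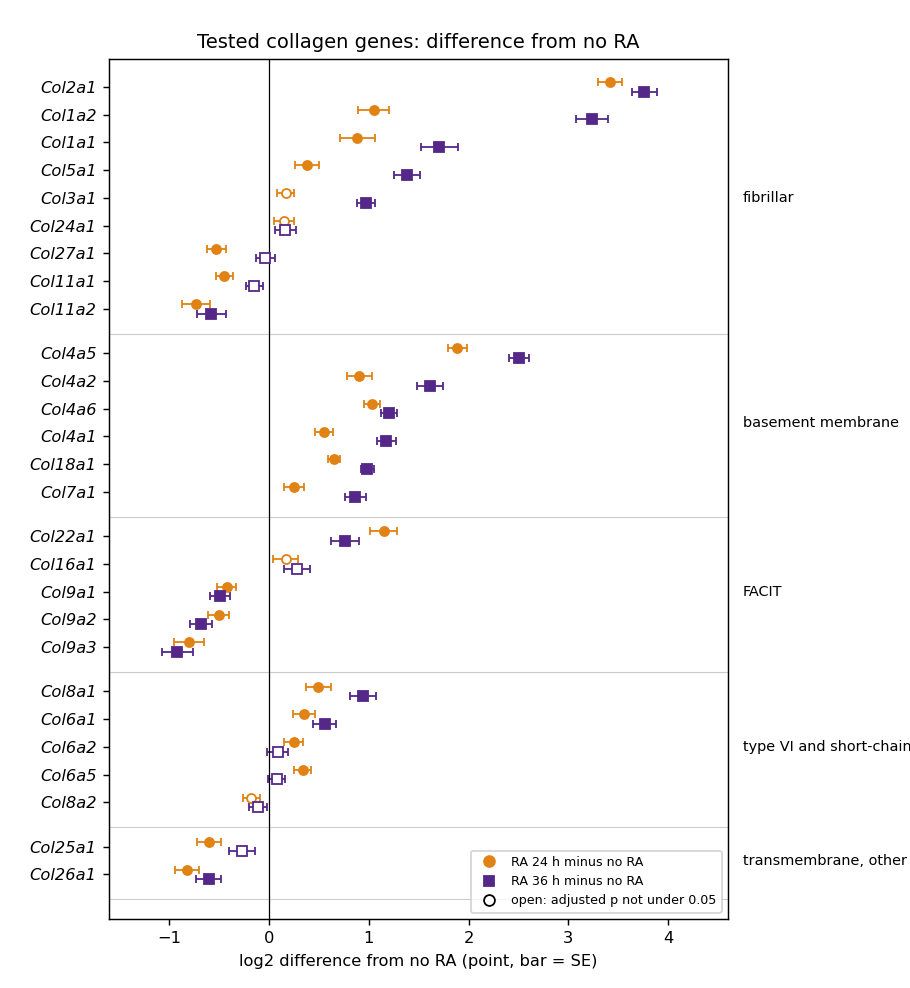
Log2 difference from no RA of the 27 tested collagen genes, by class, for RA 24 h (circles) and RA 36 h (squares); bars are standard errors and open symbols were not called. Col2a1 lies at 3.42 and 3.76, all 6 basement membrane genes lie right of 0 at both times, and the 3 type IX genes lie left of it; for Col3a1, Col6a1, Col6a5, Col11a1, Col24a1, Col25a1, Col26a1 and Col27a1 at least 1 schedule had no detected array, so their points show the fit only.

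Among fibrillar genes Col2a1, the single chain of type II collagen, which is best known from cartilage, had the largest difference. Its 11 arrays ran from 6.48 to 7.86 (median 7.10) without RA, from 10.10 to 11.11 (median 10.41) with RA 24 h and from 10.57 to 11.27 (median 10.92) with RA 36 h. The arrays without RA lay below every array with RA, and those of the RA schedules overlapped. The difference between RA 36 h and no RA was 3.76 ± 0.13 log2 (SE, 13.5-fold, adjusted p = 2.18e-19), and the other 2 probes for Col2a1 gave 3.60 and 3.29.

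Col1a2 and Col1a1 encode the chains of type I collagen, the main fibril of connective tissue. Col1a2 ran from 4.64 to 5.45 (median 5.12) without RA, from 5.42 to 7.78 (median 5.81) with RA 24 h and from 7.72 to 8.63 (median 8.39) with RA 36 h. It was detected on all 11 arrays of each RA schedule and on 4 of 11 without RA. It differed by 3.24 ± 0.16 log2 between RA 36 h and no RA (9.45-fold, adjusted p = 1.11e-15). Col1a1 ran from 5.41 to 6.67 (median 6.14) without RA, from 6.09 to 8.23 (median 6.93) with RA 24 h and from 7.27 to 8.50 (median 7.68) with RA 36 h. Its arrays at RA 36 h lay above those without RA, and those at RA 24 h overlapped both. The difference was 1.71 ± 0.19 log2 (3.27-fold, adjusted p = 9.79e-09).

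Col5a1, a chain of the type V collagen found inside type I fibrils, ran from 7.73 to 8.28 (median 7.99) without RA, from 7.88 to 9.36 (median 8.28) with RA 24 h and from 9.17 to 9.55 (median 9.32) with RA 36 h. It differed by 1.38 ± 0.13 log2 between RA 36 h and no RA (2.61-fold, adjusted p = 2.91e-10). Col3a1, the type III chain of elastic tissues, was detected on 10 of 11 arrays with RA 36 h (4.87 to 6.08, median 5.54), on 1 of 11 with RA 24 h and on none without RA. Its RA 36 h level was therefore at least 1.21-fold higher than without RA, the bound set by the lowest detected signal of each dim array (adjusted p = 2.16e-10).

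Col11a2, a chain of the type XI collagen at the core of cartilage fibrils, was the fibrillar gene that fell. It ran from 5.18 to 5.98 (median 5.78) without RA, from 4.54 to 5.46 (median 4.77) with RA 24 h and from 4.56 to 5.61 (median 5.09) with RA 36 h, close to background throughout. The difference of RA 36 h from no RA was -0.58 ± 0.15 log2 (adjusted p = 0.00145). Between the Mock arrays alone it was 0.42, with the opposite sign. Col11a1, Col24a1 and Col27a1 were not called at RA 36 h, all near background. The second probe for Col27a1 was detected on 8 arrays with RA 36 h and on none without RA and was called higher (adjusted p = 9.60e-05).

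All 6 tested basement membrane genes rose after 36 h of RA, by 0.87 to 2.51 log2. The 4 type IV chains among them lie in head-to-head pairs, Col4a1 with Col4a2 and Col4a5 with Col4a6. Their promoter windows, 250 bases before to 50 after each start site, are shown because the genes of each pair moved the same way. They come from RefSeq on mouse build GRCm38.p6, each 5′ to 3′ on the strand of its gene, and capitals mark the CCAAT box (CCAAT, or ATTGG where it lies on the other strand) and the GC box (GGGCGG or CCGCCC), both searched on both strands and not overlapping.
Col4a1 (chr8:11312777-11313076, minus strand): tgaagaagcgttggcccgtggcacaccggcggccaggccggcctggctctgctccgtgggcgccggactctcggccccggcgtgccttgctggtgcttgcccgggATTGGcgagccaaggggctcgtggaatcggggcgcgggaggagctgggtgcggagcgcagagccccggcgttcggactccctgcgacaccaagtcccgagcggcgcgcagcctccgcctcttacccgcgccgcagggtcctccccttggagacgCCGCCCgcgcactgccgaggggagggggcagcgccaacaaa
Col4a2 (chr8:11312555-11312854, plus strand): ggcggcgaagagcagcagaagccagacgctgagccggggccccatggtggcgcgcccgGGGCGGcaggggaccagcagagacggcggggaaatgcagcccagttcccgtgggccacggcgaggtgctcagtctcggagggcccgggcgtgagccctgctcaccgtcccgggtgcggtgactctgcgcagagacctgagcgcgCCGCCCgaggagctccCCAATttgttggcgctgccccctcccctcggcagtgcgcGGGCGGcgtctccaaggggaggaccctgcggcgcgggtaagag
Col4a5 (chrX:141475169-141475468, plus strand): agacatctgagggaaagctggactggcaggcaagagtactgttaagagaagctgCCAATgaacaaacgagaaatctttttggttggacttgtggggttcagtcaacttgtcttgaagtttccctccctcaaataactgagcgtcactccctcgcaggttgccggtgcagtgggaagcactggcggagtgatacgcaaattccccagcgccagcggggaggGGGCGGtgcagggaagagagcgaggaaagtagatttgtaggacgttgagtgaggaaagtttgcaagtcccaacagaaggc
Col4a6 (chrX:141474027-141474326, minus strand): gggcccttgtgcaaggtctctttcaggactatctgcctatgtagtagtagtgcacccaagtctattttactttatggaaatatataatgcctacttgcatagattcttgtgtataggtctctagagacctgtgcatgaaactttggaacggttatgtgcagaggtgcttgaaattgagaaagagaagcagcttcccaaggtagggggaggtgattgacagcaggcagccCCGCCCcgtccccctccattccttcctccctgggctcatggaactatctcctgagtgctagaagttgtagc

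The RefSeq start sites of Col4a1 and Col4a2 lie 21 bases apart on opposite strands, so these windows share 78 bases, and the GC box at the start sites is read in both. The windows of Col4a1 and Col4a2 are 74.0% and 73.7% G or C, against a median of 52.7% over 32851 mouse windows. Col4a5 and Col4a6 start 1343 bases apart, with windows of 52.7% and 48.3% G or C that do not overlap. A CCAAT box was read once in each of Col4a1, Col4a2 and Col4a5 and not in Col4a6. GC boxes were read 3 times for Col4a2 and once for each of the other 3 genes. CCAAT is in 37.4% and GGGCGG in 35.7% of all windows, and in 10 and 19 of the 25 windows of tested collagen genes. The retinoid receptor motif AGGTCA is in 16.3% of all windows and in 5 of those 25, none of them printed above. Those 25 belong to genes that passed the detection filter, and the full set of windows was not filtered. The motif shares therefore compare unlike groups. Windows were at hand for 22 of the 27 tested genes, Col2a1 not among them.

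Col4a1 and Col4a2 make the widespread type IV network. Col4a1 ran from 9.66 to 10.20 (median 10.04) without RA, from 10.12 to 11.29 (median 10.41) with RA 24 h and from 10.92 to 11.61 (median 11.07) with RA 36 h. Col4a2 ran from 8.41 to 9.28 (median 8.76) without RA, from 9.18 to 10.46 (median 9.43) with RA 24 h and from 10.11 to 10.93 (median 10.24) with RA 36 h. For both genes the RA 36 h arrays lay above all arrays without RA, and some RA 24 h arrays overlapped each. Col4a1 differed by 1.18 ± 0.10 log2 (2.26-fold, adjusted p = 3.58e-11). Col4a2 differed by 1.62 ± 0.13 log2 (3.07-fold, adjusted p = 2.26e-11).

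Col4a5 and Col4a6, the chains of a type IV network with a narrower distribution, also rose. Col4a5 ran from 6.32 to 7.37 (median 6.83) without RA, from 8.18 to 9.17 (median 8.72) with RA 24 h and from 9.10 to 9.79 (median 9.30) with RA 36 h, a difference of 2.51 ± 0.10 log2 at RA 36 h (5.69-fold, adjusted p = 8.47e-18). Col4a6 was detected on 3 of 11 arrays without RA (4.68 to 5.63, median 5.03) and on every array with RA 24 h (5.77 to 6.45, median 6.11) and RA 36 h (5.79 to 6.70, median 6.22). It differed by 1.21 ± 0.08 log2 (2.31-fold, adjusted p = 9.37e-13). Without RA neither gene overlapped either RA schedule.

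Col18a1, the proteoglycan collagen that is cleaved to endostatin, was high in every schedule. It ran from 12.57 to 12.84 (median 12.69) without RA, from 13.15 to 13.65 (median 13.30) with RA 24 h and from 13.52 to 13.77 (median 13.65) with RA 36 h. Its difference at RA 36 h was 0.98 ± 0.06 log2 (1.98-fold, adjusted p = 4.10e-13). Col7a1, the anchoring fibril chain of skin, ran from 6.46 to 7.11 (median 6.67) without RA, from 6.59 to 7.50 (median 6.97) with RA 24 h and from 6.82 to 8.05 (median 7.63) with RA 36 h. It differed by 0.87 ± 0.11 log2 (1.82-fold, adjusted p = 1.08e-07), while the Mock arrays alone differed by 0.24 (adjusted p = 0.702).

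Type IX collagen, a FACIT heterotrimer that coats type II fibrils, moved against Col2a1. Col9a3 ran from 9.19 to 9.61 (median 9.36) without RA, from 8.06 to 9.33 (median 8.81) with RA 24 h and from 8.31 to 8.90 (median 8.60) with RA 36 h. It was lower with RA 36 h in all 11 matched treatments, by -0.92 ± 0.15 log2 (adjusted p = 1.19e-05). Col9a2 (-0.68 ± 0.11, adjusted p = 7.93e-06) and Col9a1 (-0.49 ± 0.10, adjusted p = 0.000149) fell close to background, Col9a2 being detected on 3 of 11 arrays with RA 36 h and 9 of 11 without RA, and Col9a1 on 4 and 9. Between the Mock arrays alone the differences were -0.88 for Col9a3, -0.20 for Col9a2 and -0.27 log2 for Col9a1.

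Col22a1, a FACIT collagen of tissue junctions, went the other way. It ran from 4.95 to 5.81 (median 5.35) without RA, from 5.57 to 7.03 (median 6.40) with RA 24 h and from 5.51 to 6.40 (median 6.16) with RA 36 h. It was 0.76 ± 0.14 log2 higher with RA 36 h than without RA (1.69-fold, adjusted p = 3.79e-05). The fifth FACIT gene, Col16a1, differed by 0.28 ± 0.13 log2 and was not called.

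Col8a1, a short-chain collagen of vessel walls and cornea, was detected on all 11 RA 36 h arrays (5.42 to 6.37, median 5.98) and 1 of 11 without RA (4.76 to 5.29, median 4.98). It was called higher (adjusted p = 5.33e-07), by a size that rests on a group near background without RA. Col6a1, a type VI chain, averaged 5.20 ± 0.23 with RA 36 h and 4.67 ± 0.11 without RA (SD, n = 11 each). It was called higher (adjusted p = 0.000153), but no array without RA detected it and no fold can be given. Col6a2, Col6a5 and Col8a2 were not called. Of the remaining class, Col25a1 was not called and Col26a1 was called lower, at 4.95 ± 0.34 with RA 36 h and 5.58 ± 0.30 without RA (SD, n = 11 each, -0.60 ± 0.12 log2, adjusted p = 0.000162). The second Col26a1 probe was called in the opposite direction (0.64, adjusted p = 0.00309), so the direction of this gene depends on the probe. Between the Mock arrays alone its brightest probe differed by -1.19 log2, the largest fall among the tested collagen genes there. Across the tested genes, 12 of 15 other tested probes had the sign and the call of the brightest one, the exceptions being those of Col11a1, Col26a1 and Col27a1. Further probes for tested genes did not pass the detection filter and were not compared. Among them, the only other probes for Col3a1, Col7a1 and Col22a1 were detected on no array, and those for Col9a3 and Col9a1 on at most 1.

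Slide and RA overlap in this design. Treating slide as a random block again gave 19 called collagen genes at RA 36 h, beside 49.8% of all genes, and compound arrays alone gave 19, beside 58.1%. With slide as a fixed block, where the single Mock array without RA on a slide of RA 36 h compounds carries the contrast of RA with no RA, 8 were called, beside 12.9% of all genes. They were Col2a1 (4.28), Col1a2 (4.11), Col5a1 (2.68), Col4a5 (2.90), Col4a2 (2.33), Col4a1 (1.70), Col18a1 (1.68) and, lower, Col9a3 (-2.28 log2). Col9a2 (0.047) and Col26a1 (0.23) had the opposite sign in that fit and were not called. The same fit ties those compounds to Mock through the CM arrays and the other Mock arrays. It takes treatment differences as equal in every schedule, although with RA 24 h Mock and CM stood apart from the compounds. Between the Mock arrays alone the differences were 1.38 for Col5a1, 2.65 for Col4a5 and -0.88 log2 for Col9a3. From the Mock arrays alone, 1 per schedule and with the spread taken from all groups, 10 genes were called at RA 36 h, 9 of them higher, beside 14.8% of all genes.

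**Figure D2:**
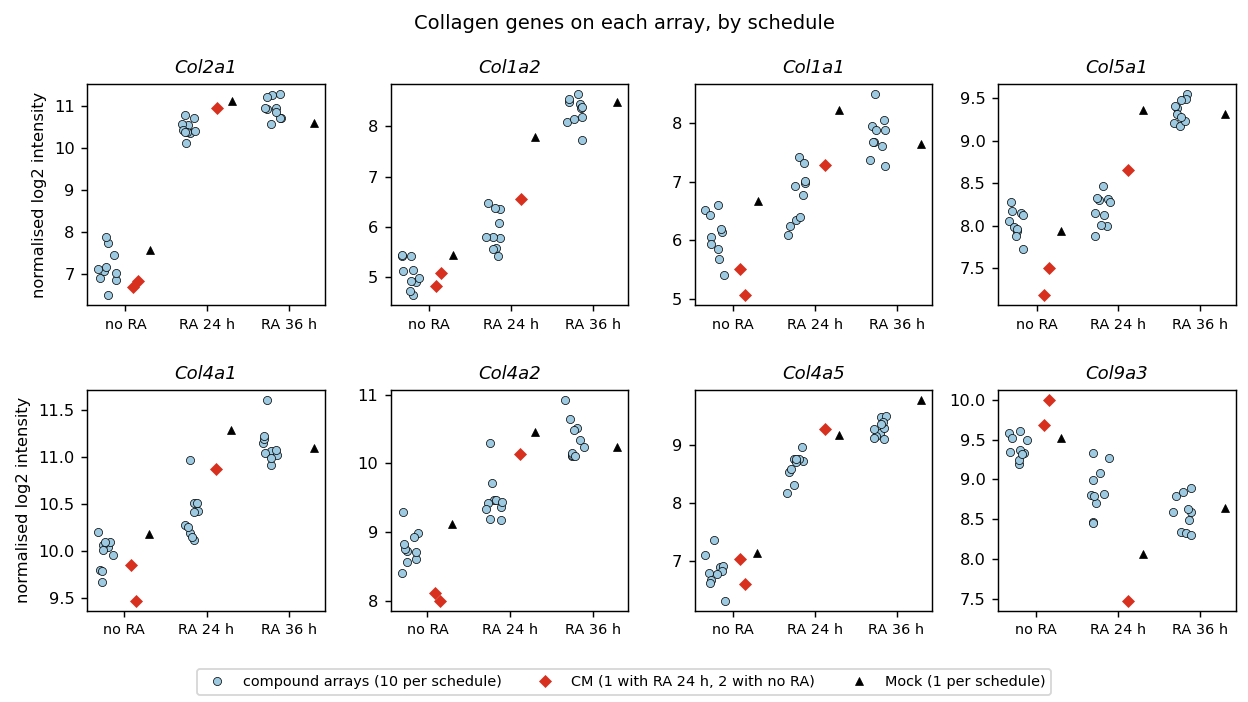
Normalised log2 intensity of 8 collagen genes on every array, by schedule: compound arrays (circles), CM (diamonds) and Mock (triangles). At RA 24 h the Mock array lies above all 10 compound arrays for Col2a1, Col1a2, Col1a1, Col5a1, Col4a1, Col4a2 and Col4a5 and below them for Col9a3.

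Both RA schedules were set against the same arrays without RA, and each comparison is given on its own values. Against no RA, the RA 24 h schedule had 15 collagen genes higher and 8 lower of 27, beside 62.9% of all tested genes called (30.9% higher and 32% lower). Col2a1 was 3.42 ± 0.12 log2 higher (adjusted p = 6.54e-19), Col22a1 1.15, Col1a2 1.05, Col1a1 0.89 and Col5a1 0.39 log2, and Col8a1 was called higher. All 6 basement membrane genes were again higher, by 1.89 log2 for Col4a5, 1.03 for Col4a6, 0.91 for Col4a2, 0.65 for Col18a1, 0.55 for Col4a1 and 0.25 for Col7a1. The Col7a1 call was lost in 8 of 20 other settings, and 2 of its 11 matched treatments had the opposite sign. Col9a3 (-0.80), Col11a2 (-0.73), Col9a2 (-0.50) and Col9a1 (-0.42 log2) were lower. In 5 genes the 11 arrays of RA 24 h and of no RA did not overlap, Col2a1, Col4a5, Col4a6 and Col18a1 higher and Col26a1 lower, beside 15.6% of all genes. From compound arrays alone 19 collagen genes were called, 11 higher and 8 lower, beside 59.1% of all genes, and from Mock arrays alone 11, of which 10 were higher, beside 15.1% of all genes. With slide as a random block 21 were called, beside 50.7% of all genes, though RA 24 h and no RA shared no slide. Col2a1 had 90.9% of its RA 36 h difference at RA 24 h, on the log2 scale, and Col4a6 85.4%. Type IX chains had 74.4% to 87.2%. By contrast Col1a2 had 32.4%, Col7a1 29.2% and Col5a1 27.8%. Col22a1 had 151%. These shares come from the fit to all arrays, most of which held a compound. On Mock arrays alone Col1a2 was 2.34 log2 higher at RA 24 h and 3.04 at RA 36 h than without RA. Col7a1 was 0.85 and 0.24 higher there, and Col5a1 1.43 and 1.38. Col6a1 was called higher at both times. Called at RA 24 h and not at RA 36 h were Col6a2 and Col6a5 (higher) and Col11a1, Col25a1 and Col27a1 (lower), each near background in both groups. The other tested probes for Col11a1 and Col27a1 lay the other way. They averaged 4.93 and 5.06 with RA 24 h, against 4.67 and 4.71 without RA, where neither was detected. By its brightest probe Col26a1 was on no RA 24 h array above background and was at least 1.35-fold lower there than without RA (adjusted p = 1.32e-06). Its second tested probe was detected on 3 of 11 RA 24 h arrays and 1 of 11 without RA, so this result depends on the probe.

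Set directly against RA 36 h, the RA 24 h schedule had 14 collagen genes lower and 2 higher, beside 18.2% of all genes lower and 22.7% higher (40.9% called). The median difference was -0.30 log2 over the collagen genes and 0.03 over all genes. Of the fibrillar genes 7 of 9 were lower and of the basement membrane genes 5 of 6. Col1a2 differed most, by -2.19 ± 0.16 log2 (adjusted p = 1.09e-09) and in all 11 matched treatments. Col5a1 differed by -0.999 ± 0.13 (adjusted p = 9.10e-07) and Col1a1 by -0.82 ± 0.19 log2 (adjusted p = 0.00103). Col3a1 was called lower (adjusted p = 1.31e-07), detected on 1 of 11 RA 24 h arrays and 10 of 11 RA 36 h arrays. Among basement membrane genes the differences were -0.71 for Col4a2, -0.62 for Col4a1 and Col4a5, -0.61 for Col7a1 and -0.33 for Col18a1, and Col4a6 was not called. Col8a1 (-0.45), Col2a1 (-0.34), Col27a1, Col25a1 and Col11a1 were also lower. Of 20 other settings, Col2a1 kept its sign and call in 10 and Col25a1 in 8. The other tested probe for Col11a1 lay the other way, averaging 4.93 with RA 24 h and 4.78 with RA 36 h. Col22a1 was higher by 0.39 ± 0.14 log2 (adjusted p = 0.0287) and Col6a5, detected on 3 of 11 RA 24 h arrays and no RA 36 h array, was called higher (adjusted p = 0.0185). In no collagen gene were the 11 arrays of the RA schedules free of overlap, against 3.21% of all tested genes.

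This comparison rested on the compound arrays. From compound arrays alone 17 collagen genes were called, 14 of them lower, beside 41.3% of all genes. Between the Mock arrays of RA 24 h and RA 36 h none was called by limma, beside 0.0728% of all genes, and 2 had an unadjusted p under 0.05. There Col5a1 was at 9.36 with RA 24 h and 9.32 with RA 36 h, Col4a1 at 11.29 and 11.10, Col2a1 at 11.11 and 10.59, and Col1a2 at 7.78 and 8.48. In 8 of the genes called lower the Mock difference had the opposite sign. Treating slide as a random block gave 12 called genes, all lower, beside 25.7% of all genes, with Col2a1, Col25a1, Col22a1 and Col6a5 no longer called.

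Within the RA 24 h schedule the 10 compound arrays had on average less type I, type V and type IV collagen mRNA than the Mock and CM arrays. Col1a2 was at 5.42 to 6.48 (median 5.81) on the compound arrays, against 7.78 on Mock and 6.56 on CM. Col5a1 was at 7.88 to 8.46 (median 8.22), against 9.36 on Mock and 8.66 on CM, and Col4a1 at 10.12 to 10.97 (median 10.35), against 11.29 and 10.87. The Mock array lay above every compound array in these 3 genes, and the CM array lay above them in Col1a2 and Col5a1 and among them in Col4a1. The test that follows was chosen because earlier results of these data showed Mock and CM apart from the compounds. Its p-values are therefore not independent evidence of that difference. In the test of compounds against the mean of Mock and CM, 7 collagen genes were lower and 1 higher, beside 9.61% of all tested genes. Col1a2 differed by -1.24 ± 0.23 log2 (adjusted p = 0.000302), Col1a1 by -1.01 ± 0.29 (adjusted p = 0.0241), Col5a1 by -0.82 ± 0.13 (adjusted p = 3.31e-05) and Col4a2 by -0.81 ± 0.21 (adjusted p = 0.00980). Col6a1 (-0.73), Col4a1 (-0.70) and Col4a5 (-0.60) were also lower, and Col9a3 was higher by 1.10 ± 0.17 log2 (adjusted p = 2.61e-05), at 8.46 to 9.33 on compound arrays against 8.06 on Mock and 7.48 on CM. Without the CM array 6 genes were called, and without the Mock array 1, Col9a3. Against the Mock array alone, in the fit that keeps CM as its own group, 6 were called, beside 4.15% of all genes, at -1.85 log2 for Col1a2, -1.48 for Col1a1, -1.17 for Col5a1, -0.97 for Col4a2, -0.91 for Col4a1 and 0.81 for Col9a3. The Col6a1 probe was detected on 4 of the 12 RA 24 h arrays, so its size rests on values near background. Cell type markers moved with the difference of the compounds from Mock and CM. Of 6 epiblast markers (Pou5f1, Nanog, Fgf5, Otx2, Dnmt3b, Utf1) 5 were higher on the compound arrays, and their summed level was 12.93 to 13.26 log2 there, against 12.09 on Mock and 11.72 on CM. Of 5 neural crest markers 2 were lower, Ednrb and Sox10, with a summed level of 10.57 to 11.62, against 12.55 on Mock and 12.31 on CM. A summed level is the log2 of added unlogged intensities, so the brightest marker weighs most. Among the neural crest markers that was Ednrb (mean 12.56 with RA 36 h, next Sox10 at 6.88). Of 8 extraembryonic endoderm markers 2 were lower, Lama1 and Dab2, with a summed level of 11.87 to 12.22, against 12.66 on Mock and 12.07 on CM. Of 5 paraxial mesoderm and cartilage markers Meox1 was lower (summed level 9.06 to 9.53, against 9.01 on Mock and 10.33 on CM), and of 5 fibroblast markers Thy1 was higher (9.27 to 9.98, against 10.34 and 8.79). Their part in the result was not tested.

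**Figure D3:**
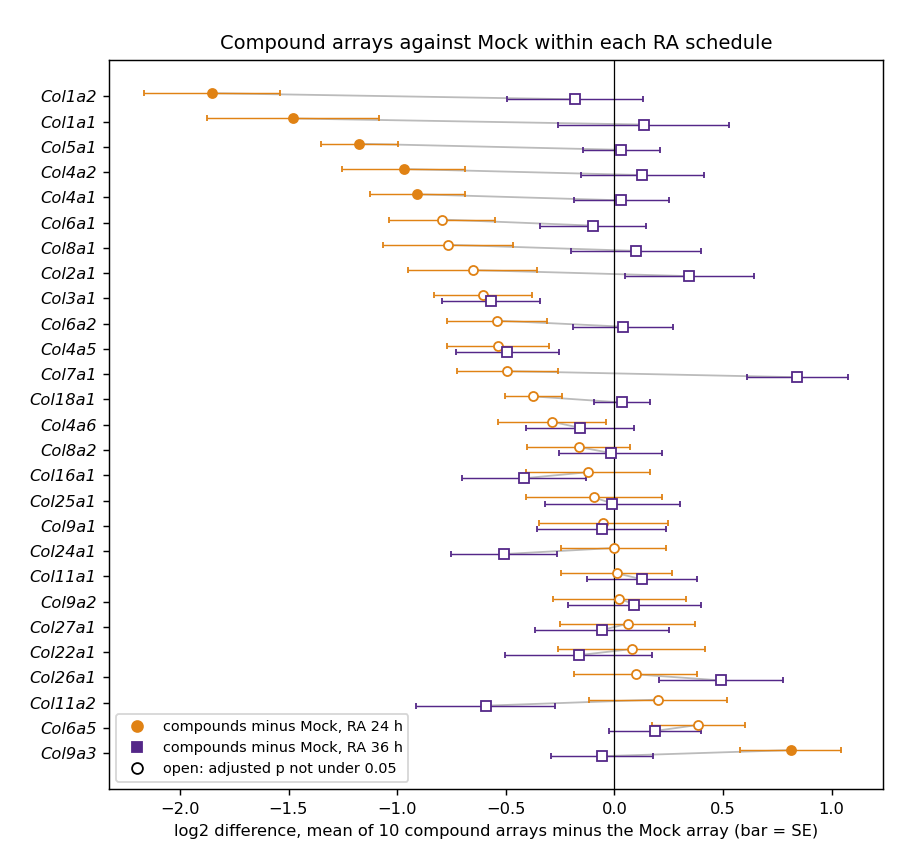
Mean of the 10 compound arrays minus the Mock array for each tested collagen gene, with RA 24 h (circles) and RA 36 h (squares); bars are standard errors and open symbols were not called. At RA 24 h 6 genes were called, Col1a2, Col1a1, Col5a1, Col4a2, Col4a1 and Col9a3, and at RA 36 h none.

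With RA 36 h, compounds and Mock differed in no collagen gene by limma (4 at an unadjusted p under 0.05), beside 0.00809% of all genes. Without RA none was called (1 at an unadjusted p under 0.05), beside 0.283% of all genes. The difference between the 2 RA schedules was itself called for Col5a1, at -1.21 ± 0.25 log2 (adjusted p = 0.00767), and Col7a1, at -1.33 ± 0.33 log2 (adjusted p = 0.0320), beside 1.37% of all genes. For Col5a1 compounds minus Mock was -1.17 at RA 24 h and 0.03 at RA 36 h. For Col7a1 it was -0.49 at RA 24 h and 0.84 at RA 36 h, where the Mock array (6.82) lay below the 10 compound arrays (7.47 to 8.05). Each schedule has 1 Mock array, which is assumed to vary like the other groups.

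No compound had a called difference in a collagen gene over the 3 schedules. Of 270 pairs of gene and compound, 0 were called by limma against Mock, beside 0.00889% of all such pairs, and 54 (20%) had an unadjusted p under 0.05, beside 6.46% of all gene and compound pairs. P-values were adjusted over all tested probes for each compound. All 10 compounds share the same 3 Mock arrays, among them the RA 24 h Mock array with its high type I and type IV levels. Against the mean of the other 9 compounds, a contrast that leaves Mock out, 0 of 270 were called, beside 0.0283% of all pairs, and 16 (5.93%) had an unadjusted p under 0.05, beside 3.69% of all pairs. The 95% interval of a pair reached 0.33 log2 either side at the median against the other compounds, and 0.44 against Mock, so differences of that size cannot be told from none here. With all 10 compounds averaged against Mock, 0 collagen genes were called and 8 had an unadjusted p under 0.05, all lower, with Col1a2 (-0.80 log2), Col1a1 (-0.64) and Col3a1 (-0.49) the lowest. Docetaxel was the only compound with called genes of any kind, 0.283% of tested genes against the other 9 and 0.0889% against Mock.

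Docetaxel had the highest level of both Col4a1 and Col4a2 among the 10 compounds in every schedule. Col4a1 was at 10.20 without RA, 10.97 with RA 24 h and 11.61 with RA 36 h on Docetaxel arrays, against 9.66 to 10.09, 10.12 to 10.51 and 10.92 to 11.22 on those of the other 9 compounds in the same schedules. Col4a2 was at 9.28, 10.30 and 10.93 on the same Docetaxel arrays, against 8.41 to 8.99, 9.18 to 9.71 and 10.11 to 10.65. Against the other 9, Col4a2 differed by 0.70 log2 (95% interval 0.31 to 1.08, adjusted p = 0.152) and Col4a1 by 0.48 (0.20 to 0.77, adjusted p = 0.205). With slide as a fixed block, which sets Docetaxel against the 4 compounds on its own slides, both were called, Col4a1 at 0.54 ± 0.09 log2 (adjusted p = 0.00596) and Col4a2 at 0.66 ± 0.13 (adjusted p = 0.0194), beside 0.695% of all tested genes. These genes were picked out after their values were seen. The RA 24 h Mock array was higher than the Docetaxel array in both genes, at 11.29 for Col4a1 and 10.46 for Col4a2, and the Mock arrays of the other schedules were lower than the Docetaxel arrays.

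**Figure D4:**
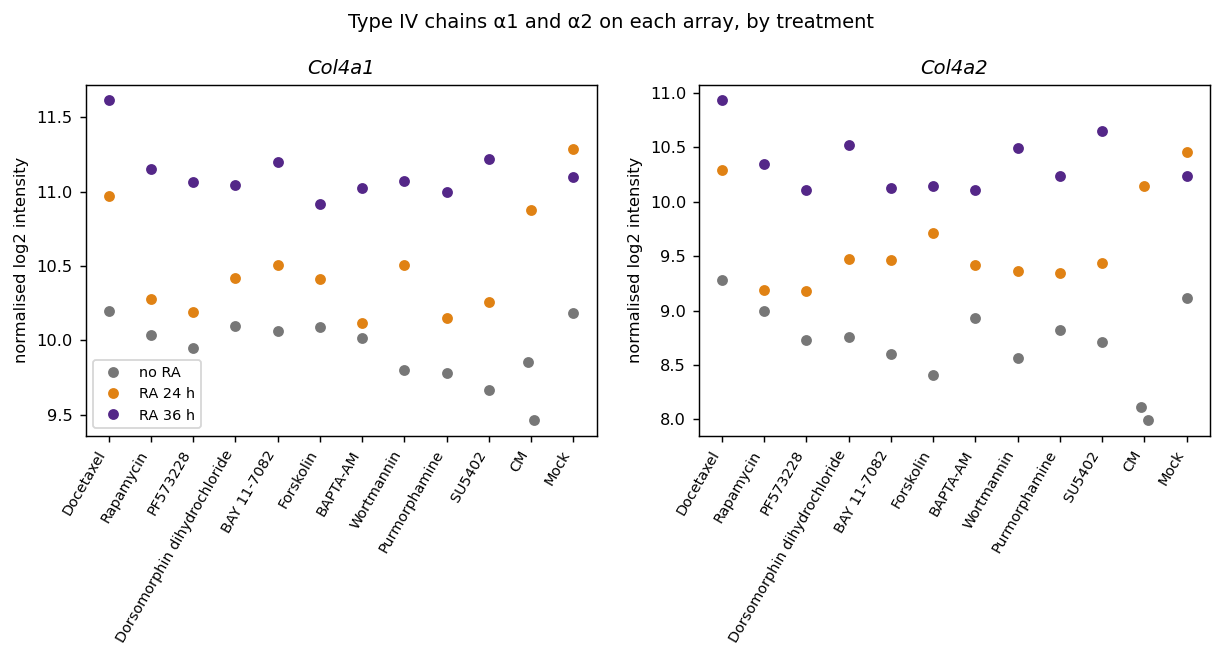
Normalised log2 intensity of Col4a1 (left) and Col4a2 (right) on each array, by treatment, coloured by schedule. Docetaxel is the highest compound in all 3 schedules for both genes, and the RA 24 h Mock array lies above it.

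In the other direction, Col22a1 was lowest on the Docetaxel array of each schedule, at 4.95 without RA, 5.57 with RA 24 h and 5.51 with RA 36 h, against 5.20 to 5.81, 5.92 to 7.03 and 5.92 to 6.40 on the other 9. The difference was -0.69 log2 (95% interval -1.11 to -0.28, adjusted p = 0.205). Col3a1 with Docetaxel against Mock had the lowest adjusted p of that family, 0.111 (-0.70 log2). It was called when background was floored in place of modelled. By unadjusted p the first pair against the other 9 was Col27a1 with BAPTA-AM (0.56 log2, adjusted p = 1). There the BAPTA-AM array was the highest of the compounds in both RA schedules and below 1 other without RA.

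CM without RA was lower than the compounds in several collagen genes. On the 2 slides that hold it, each with 5 compounds, 4 collagen genes were lower and 1 higher, beside 7.65% of all tested genes. Col16a1, a FACIT collagen, was at 4.80 and 5.22 on the CM arrays, not detected on either, and at 5.66 to 6.56 (median 5.998) on the 10 compound arrays, at least 1.66-fold lower with CM (adjusted p = 0.00935). Col4a2 was at 7.998 and 8.12, against 8.41 to 9.28 (-0.72 ± 0.17 log2, adjusted p = 0.0214). Col5a1 was at 7.18 and 7.51, against 7.73 to 8.28 (-0.68 ± 0.13 log2, adjusted p = 0.00613). In these 3 genes both CM arrays lay below every compound array.

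Col22a1 was at 4.69 and 4.81 on the CM arrays without RA, not above background, against 4.95 to 5.81 on the compound arrays, and was at least 1.07-fold lower with CM (adjusted p = 0.0410). Col9a3 was higher with CM, at 9.69 and 10.00 against 9.19 to 9.61 (0.44 ± 0.11 log2, adjusted p = 0.0280). Markers moved with this difference as well. The extraembryonic endoderm markers summed to 10.54 and 10.59 log2 on the CM arrays, against 11.37 to 11.58 on the compound arrays without RA, and 1 of 8, Sparc, was called lower (-1.05). The epiblast markers summed to 15.63 on both CM arrays, against 15.15 to 15.43, and 1 of 6, Otx2, was called higher (0.59). Of the neural crest markers 1 of 5, Ngfr, was called lower (-0.88), with summed levels of 7.14 and 7.33 against 7.26 to 8.59, and no fibroblast or paraxial mesoderm marker was called. The part of these markers in the result was not tested. Without CM replicate 1 no collagen gene was called, and without CM replicate 2 Col16a1 was the single one. Against Mock over both schedules, CM differed in 0 collagen genes by limma, beside 3.37% of all genes, and 7 had an unadjusted p under 0.05, all lower. Leaving out the RA 24 h arrays, Col16a1 (-1.29 log2, adjusted p = 0.00557) and Col4a2 (-0.85 log2, adjusted p = 0.0318) were called lower against the Mock array.

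Genes that act on collagen also differed at RA 36 h against no RA. Among folding and modifying enzymes and chaperones 12 of 17 tested rose and 3 fell, with a median difference of 0.27 log2. Beside these and the lists that follow stand 28.4% of all genes higher, 30.8% lower and a median of -0.03 log2. The prolyl hydroxylase P3h2, which acts on type IV collagen, rose by 2.47 log2 and the collagen chaperone Serpinh1 by 1.47, while the ion channel gene Tmem38b (-1.50) and the lysyl hydroxylase Plod2 (-0.62) fell. Of 10 genes of procollagen export and cleavage 4 rose and 2 fell (median 0.10), with rises of Bmp1, the C-propeptide protease (1.64), and Sec24d, a vesicle coat subunit (1.31), and falls of the protease enhancers Pcolce (-1.26) and Pcolce2 (-0.89). Of 5 crosslinking genes 3 rose (median of the list 0.77), led by the transglutaminase Tgm2 (2.74) and Loxl1 (1.51), and Loxl4 (-0.60) fell.

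Of 7 fibril-associated matrix genes 6 rose and 0 fell (median 0.59), led by the proteoglycan Bgn (1.81 log2) and Thbs1 (0.88). Of 6 receptor genes 2 rose, Itgb1 (0.75) and Itga11 (0.23, detected on 1 of 11 arrays of either schedule), and 3 fell, with Ddr1 (-1.10) and Itga1 (-0.92) the lowest (median -0.20). Among 9 collagenases and inhibitors 4 rose, led by Mmp9 (1.44) and the inhibitor Timp3 (1.07), and Timp4 (-0.22, likewise near background) fell (median 0.26). Of 11 regulators of collagen genes 8 rose and 2 fell (median 0.82), with Sox9 (1.21), which activates Col2a1 and Col9a1 in cartilage, and Smad3 (1.19) the largest rises and Tgif1 (-0.95) and Tgfb1 (-0.48) the falls. Sox5, a partner of Sox9, was not detected without RA and was at least 1.36-fold higher with RA 36 h. With CM against Mock, where 3.37% of all genes were called, 4 of the 7 fibril-associated genes fell and 0 rose, Thbs1 by -1.74, Dcn by -0.99, Sparc by -0.98 and Fn1 by -0.59 log2. In the same comparison 2 of the 10 export and cleavage genes and 1 of the 9 collagenases and inhibitors fell, no gene of the other 4 pathway lists was called, and of the marker lists 1 of 8 endoderm and 1 of 5 fibroblast markers fell.

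Cell type markers moved with the schedules too. All 6 epiblast markers fell at RA 36 h, Otx2 by -5.71 and Nanog by -5.45 log2, and their summed level was 15.15 to 15.43 log2 on compound arrays without RA, 12.93 to 13.26 with RA 24 h and 11.96 to 12.56 with RA 36 h. Of 8 tested extraembryonic endoderm markers 5 rose, Lama1 by 5.03 and Sox7 at least 2.50-fold, and 1 fell (summed levels 11.37 to 11.58 without RA, 11.87 to 12.22 with RA 24 h and 12.37 to 12.70 with RA 36 h, and in this order for the lists that follow). Of 5 neural crest markers 2 rose, Ednrb by 7.18 and Sox10 at least 3.02-fold (7.26 to 8.59, 10.57 to 11.62 and 12.46 to 13.13). Of 5 paraxial mesoderm and cartilage markers 3 rose, with Meox1 at least 4.22-fold and Sox9, also among the regulators, by 1.21, and 2 fell (7.75 to 8.63, 9.06 to 9.53 and 8.80 to 9.21). Of 10 fibroblast markers 5 were tested, of which 2 rose, Twist2 by 0.85 among them, and 1 fell, Thy1 by -2.78 (9.61 to 10.42, 9.27 to 9.98 and 9.54 to 10.53). Sparc counts in the endoderm and Dcn in the fibroblast markers as well as among the fibril-associated genes. Each was the brightest of its marker list, Sparc averaging 11.57 with RA 36 h and 11.14 without RA, and Dcn 10.01 and 9.39. Pdgfra and Prrx1 were above background on 1 of 11 RA 36 h arrays each and on none without RA. The part of these cell types in the collagen differences was not tested.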

How the data were processed

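RNA of 36 mouse EpiSC samples was biotin-labelled and hybridised to Illumina bead arrays, per the labels' protocols. The deposited table holds raw intensities and a detection p-value for each of 45281 probes on each array, before any normalisation. The authors' normalised log2 values, made with lumi per the submitters' processing notes, were used as an alternative. Groups came from the sample titles and all 36 arrays were mapped.

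Intensities were background-corrected with normexp, quantile-normalised and put on the log2 scale with neqc of limma 3.58.1 in R 4.3.3 (offset 16). The 23999 probes with a detection p-value under 0.05 on at least 3 arrays were fitted. A model with schedule and treatment (22 residual degrees of freedom) gave the schedule, compound and CM contrasts. A model with a mean for each schedule and kind of array (28) gave contrasts within a schedule and of Mock arrays, and one with slide as a block (9) gave CM against compounds without RA. P-values are limma's moderated test, two-sided, with Benjamini-Hochberg adjustment over all tested probes of a contrast. A gene stands for its probe with the highest mean. Where no array of a group detected a probe, a fold is a lower bound from normalised values, set against the lowest detected signal of each array of that group.

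The array carries 34885 probes with 1 gene symbol, 18 with several and 10378 with none. The printed promoters are RefSeq windows, and motif matching took exact letters on both strands. Every tested collagen gene was accounted for in each schedule contrast. Of each other pathway list the 2 largest rises and falls among called genes were named, and of each marker list its counts, its summed level and the 2 largest differences. Members, gene lists and tests were chosen with earlier results of these data known. The fits were tested on simulated data. Alternatives were the authors' values, cyclic loess, a floor in place of normexp, no filter on dim probes, 1 probe per gene, slide as a block, compound or Mock arrays alone, and leaving out arrays in turn.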

Additional observations from a re-analysis of the deposited data

Results flagged for a closer look

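In each schedule the 10 compound arrays were searched, for every tested collagen gene detected there, for 1 array far from the rest. Of 69 groups of gene and schedule 3 held one, and chance alone gives such an array in about 1 of 20 groups. All 3 were Docetaxel arrays. Col4a1 was at 10.97 log2 with RA 24 h on the Docetaxel array, where the next compound was at 10.51 and the lowest at 10.12. Col4a1 was at 11.61 with RA 36 h, where the next was at 11.22 and the lowest at 10.92. Col4a2 was at 10.30 with RA 24 h, where the next was at 9.71 and the lowest at 9.18.

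In 2 collagen genes the difference of compounds from Mock was itself different between the RA schedules. RA 24 h less RA 36 h was -1.21 log2 for Col5a1 (limma, adjusted p = 0.00767) and -1.33 log2 for Col7a1 (adjusted p = 0.0320). Each rests on 1 Mock array per schedule, the RA 24 h Mock array for Col5a1 and both Mock arrays for Col7a1. The RA schedules lay on different slides.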

How the results depend on the processing

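The counts of called collagen genes in the schedule contrasts stayed within 1.5 times their value under the authors' values, cyclic loess, floored background, no filter on dim probes, 1 probe per gene, slide as a random block and compound arrays alone. Over the 10 compounds, Mock and CM left out in turn, the count was 19 to 20 for RA 36 h against no RA, 13 to 17 for RA 24 h against RA 36 h and 21 to 24 for RA 24 h against no RA. From Mock arrays alone the counts were 10, 0 and 11. There the sign turned for Col11a2 in RA 36 h against no RA (0.42 log2), for Col18a1 (0.017), Col1a1 (0.58), Col2a1 (0.52), Col4a1 (0.19), Col4a2 (0.22), Col5a1 (0.042), Col7a1 (0.61) and Col8a1 (0.34) in RA 24 h against RA 36 h, and for Col9a2 (0.053) and Col6a5 (-0.042) in RA 24 h against no RA, none of them called. With slide as a fixed block 8 genes were called with RA against no RA, and Col9a2 (0.047) and Col26a1 (0.23) turned sign without a call. Floored background gave 1 called pair of gene and compound against Mock, and the 4 compounds on the same slides gave 2 against other compounds. Leaving out each schedule in turn left 0 pairs called. CM against Mock ran from 0 to 2 calls, CM against compounds without RA from 0 to 1, and compounds against Mock and CM within RA 24 h from 1 to 6 when arrays were left out in turn. The cause of these moves was not tested, other than that Mock arrays alone leave 1 array per schedule. Of the single-gene values under all alternatives, 1176 kept sign and call, 101 lost the call and 13 turned sign. Several collagens lie near background, where log2 differences understate changes. Schedule contrasts were matched by treatment, through the treatment term, and the labels give no replicate number shared across groups that a further block could use.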
